A study of Homo sapiens with 148 samples.

Results

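The 10 endothelial marker genes were followed across the differentiation of hESCs into pancreatic cells, with particular attention to VWF in definitive endoderm. They were VWF and EGFL7, which encode secreted proteins, the receptor genes KDR, FLT1, TEK and TIE1, the adhesion genes PECAM1 and CDH5, and the transcription factor genes ERG and FLI1. The genes were chosen by name, with the measured level of VWF in definitive endoderm already known, so its values at that stage are given as a description and not as a finding. All 10 names were present, each with 1 entry, among 49085 gene names.

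RNA-seq had been carried out on H9 cells, an established hESC line, and on wild-type cells derived from them by pancreatic differentiation. The stages were undifferentiated hESCs, definitive endoderm (DE) at day 4, primitive gut tube-like cells (PGT) at day 7, pancreatic progenitors (PP) at day 14, a stage labelled PH, whose meaning and day are not given in the sources used here, and stem cell-derived β-cell (SC-β) organoids at day 35. The labels gave 2 replicates at each stage, 12 samples in all, every one from the same line, and no sample was labelled as endothelial. Each value below is the authors' mean TPM (the number of a gene's transcripts relative to a fixed total, corrected for transcript length) over the replicates of a stage, so no spread, test or interval can be given and neighbouring values in an order of levels cannot be separated from replicate error. TPM keeps no read counts. The paper gives only a lower bound on the depth of each replicate, so the number of reads behind each value is unknown.

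Endothelial cells line blood vessels. VWF, the glycoprotein that tethers platelets at sites of injury and carries coagulation factor VIII, is stored in their Weibel-Palade bodies and is also made by megakaryocytes. KDR and FLT1 are receptors for VEGF, TEK and TIE1 belong to the angiopoietin receptor system, PECAM1 and CDH5 (VE-cadherin) hold neighbouring endothelial cells together, and ERG and FLI1 are ETS-family factors that act on many endothelial genes. KDR is also expressed in early mesodermal progenitors, and FLI1 in blood cells.

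Marker genes of the stages followed the labels in part. POU5F1, a pluripotency factor, stood at 1449 TPM in hESCs and 417 TPM in DE. SOX17, a factor of both endoderm and endothelium, was highest in DE at 96.1 TPM, FOXA2 and HNF4A were highest in PGT at 48.7 and 33.7 TPM, and INS and GCG were highest in SC-β at 298 and 2793 TPM. PDX1, the factor that defines pancreatic progenitors, reached only 3.17 TPM in PP and 0.0173 TPM in PH. From 16784 names in hESCs to 24571 in SC-β reached 1 TPM. In these bulk samples, fewer cells of a type and less RNA per cell cannot be told apart.

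VWF was abundant in DE and close to absent at every other stage. Its mean was 0.465 TPM in hESCs, 191 TPM in DE, 1.21 TPM in PGT, 0.275 TPM in PP, 0.0747 TPM in PH and 0.840 TPM in SC-β. DE thus stood 411-fold above hESCs and 158-fold above PGT, the next highest stage. The gene lies at chr12:5948877-6124770 on the minus strand (GRCh38).

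**Figure D1:**
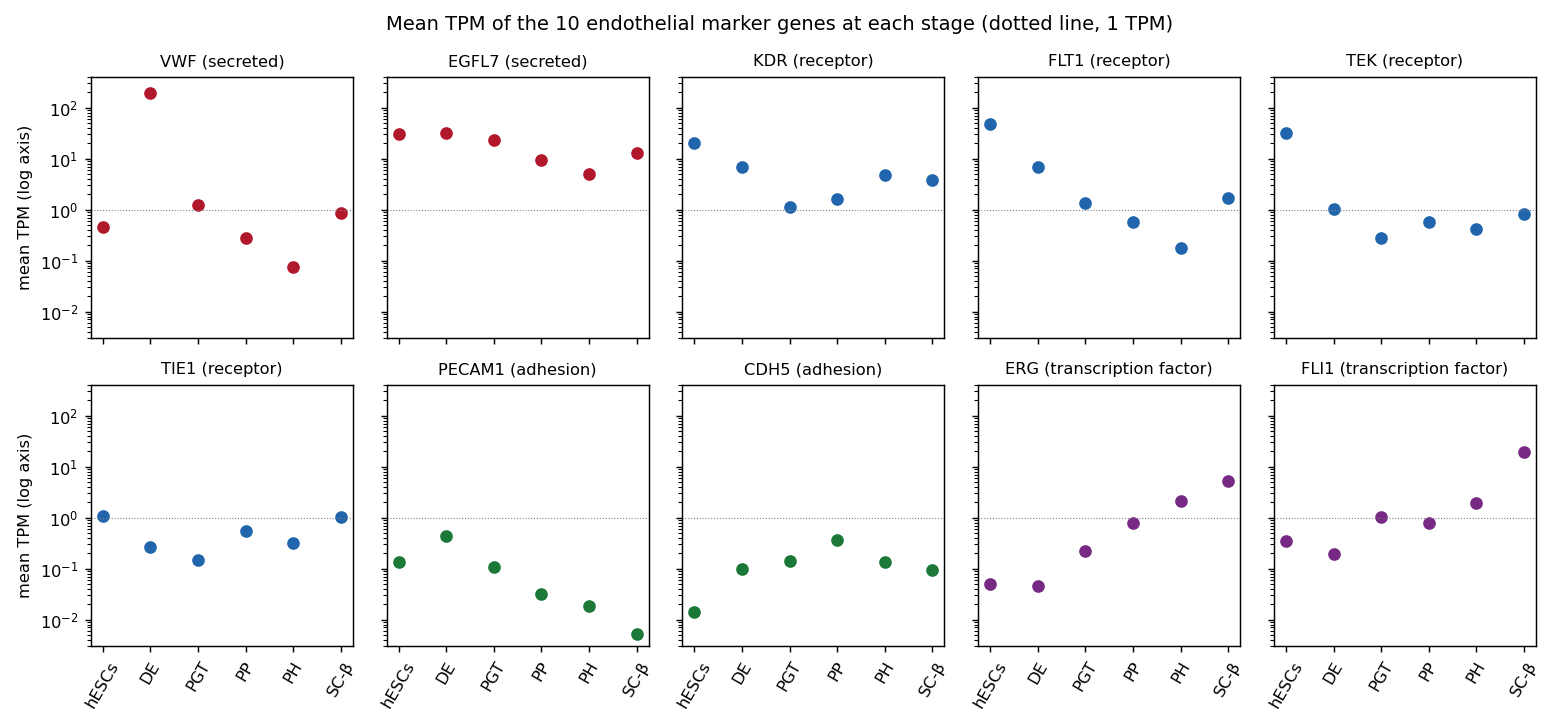
Mean TPM (log axis) of the 10 endothelial marker genes at the 6 stages. Each point is the authors' mean over 2 replicates, without an error, the dotted line marks 1 TPM and colours mark the roles given above each panel. VWF reaches 191 TPM in DE and at most 1.21 TPM elsewhere, the receptor genes are highest in hESCs, and ERG and FLI1 are highest in SC-β at 5.18 and 19.0 TPM.

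VWF ranked 444th of 49085 names by TPM in DE. Ratios between stages were computed as log2 after adding 1 TPM to each mean. On that scale VWF was higher in DE than in hESCs by 7.04, second among all names after RN7SL3, a copy of the signal recognition particle RNA, at 13.70. Its margin in DE over the highest other stage, 6.44, was the first of all names at 10 TPM or more in DE. The next protein-coding genes in that order, named after their values were seen, were CYP26A1, a retinoic acid-degrading enzyme, with a margin of 4.62, SHISA3 with 4.47, the ion channel gene TRPA1 with 4.41 and the WNT receptor gene FZD5 with 3.86. CYP26A1 stood at 392 TPM in DE against 15.0 TPM in hESCs, and FZD5 at 543 TPM against 27.5 TPM.

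A pseudogene of VWF on chromosome 22, VWFP1, was examined because reads of near-identical copies can be shared. The longest VWFP1 transcript, of 2907 bases, aligned with the longest VWF transcript over 2891 bases at 97.2% identity. VWFP1 was listed at 0.501 TPM in DE and at 0 at the other stages, and the summed level of both in DE was 192 TPM. How reads were divided between the copies is not given in the sources used here.

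VWF in DE did not come with the adhesion genes that define endothelium. PECAM1 was listed at 0.137 TPM in hESCs, 0.430 TPM in DE, 0.109 TPM in PGT, 0.0317 TPM in PP, 0.0182 TPM in PH and 0.00522 TPM in SC-β. CDH5 was listed at 0.0143 TPM in hESCs, 0.0984 TPM in DE, 0.139 TPM in PGT, 0.369 TPM in PP, 0.132 TPM in PH and 0.0955 TPM in SC-β. PECAM1 was thus highest in DE and CDH5 in PP, but both stayed under 1 TPM at every stage. The factor genes were also low in DE, where ERG was listed at 0.0460 TPM and FLI1 at 0.196 TPM. By Pearson r of the log2 profiles over the 6 stages, PECAM1 was the member most like VWF, at 0.94, and EGFL7 was next at 0.55. The order differed by Spearman's rho, which uses ranks only, with EGFL7 at 0.83, FLT1 at 0.60 and PECAM1 at 0.54. The r of FLT1 was 0.25 and that of KDR 0.19, and TEK, CDH5, FLI1, TIE1 and ERG had values from -0.12 to -0.41. These r describe 6 means with a single high point for VWF.

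KDR, FLT1 and TEK, whose products receive VEGF and angiopoietin signals, were highest in hESCs and lower in DE. KDR stood at 20.2 TPM in hESCs, 6.996 TPM in DE, 1.14 TPM in PGT, 1.61 TPM in PP, 4.72 TPM in PH and 3.89 TPM in SC-β. FLT1 stood at 48.3 TPM in hESCs, 6.84 TPM in DE, 1.37 TPM in PGT, 0.575 TPM in PP, 0.180 TPM in PH and 1.68 TPM in SC-β. TEK stood at 32.3 TPM in hESCs, 1.01 TPM in DE, 0.277 TPM in PGT, 0.580 TPM in PP, 0.418 TPM in PH and 0.811 TPM in SC-β. All 3 were thus lower in DE than in hESCs and lower again in PGT. The log2 ratio of DE to hESCs was -1.40 for KDR, -2.65 for FLT1 and -4.06 for TEK. TIE1, the fourth receptor gene, was listed at 1.09 TPM in hESCs, 0.268 TPM in DE, 0.151 TPM in PGT, 0.553 TPM in PP, 0.313 TPM in PH and 1.03 TPM in SC-β, and its log2 ratio of DE to hESCs was -0.72.

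EGFL7, a secreted protein of the vessel wall that guides the assembly of endothelial tubes, was the only member besides VWF above 10 TPM in DE. It stood at 31.0 TPM in hESCs, 31.3 TPM in DE, 23.0 TPM in PGT, 9.37 TPM in PP, 4.89 TPM in PH and 13.0 TPM in SC-β. Its log2 ratio of DE to hESCs was 0.01, and -0.45 after median-ratio rescaling of the stages. The gene, at chr9:136658856-136672678 on the plus strand, holds the endothelial microRNA gene MIR126 at chr9:136670602-136670686 on the same strand, outside every annotated EGFL7 exon. The MIR126 entry was listed between 0 TPM in SC-β and 0.183 TPM in DE, a measure of longer RNA over the hairpin and not of the mature microRNA. Its mature products (RefSeq, GRCh38.p14) are shown because they lie within EGFL7, with the seed, bases 2 to 8, in capitals.
hsa-miR-126-5p: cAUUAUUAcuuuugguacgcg
hsa-miR-126-3p: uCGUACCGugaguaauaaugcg

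Promoter sequences (RefSeq, GRCh38.p14) were matched for 6 of the 10 members, EGFL7, ERG, FLT1, KDR, TEK and TIE1, with 11 start sites between them, and VWF, PECAM1, CDH5 and FLI1 were not matched. The windows of FLT1 and KDR, which were lower together in DE, and of EGFL7, which was not, are shown 5′ to 3′ as the bases before the start, without bases annotated as exon. Capitals mark GGAAGT, an ETS-type motif, which was searched on both strands and chosen after the sequences were seen.
FLT1, chr13:28495146-28495378, minus strand: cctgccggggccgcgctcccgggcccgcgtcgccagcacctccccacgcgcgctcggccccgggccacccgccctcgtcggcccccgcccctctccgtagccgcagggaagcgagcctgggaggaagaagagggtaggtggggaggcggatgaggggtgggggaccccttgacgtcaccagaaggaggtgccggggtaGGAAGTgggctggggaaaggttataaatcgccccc
KDR, chr4:55125596-55125845, minus strand: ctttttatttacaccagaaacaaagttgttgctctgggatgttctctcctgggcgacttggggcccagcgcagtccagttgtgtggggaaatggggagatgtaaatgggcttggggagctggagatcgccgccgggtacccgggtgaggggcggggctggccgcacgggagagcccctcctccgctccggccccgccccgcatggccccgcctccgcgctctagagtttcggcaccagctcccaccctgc
EGFL7, chr9:136662666-136662915, plus strand, an internal start: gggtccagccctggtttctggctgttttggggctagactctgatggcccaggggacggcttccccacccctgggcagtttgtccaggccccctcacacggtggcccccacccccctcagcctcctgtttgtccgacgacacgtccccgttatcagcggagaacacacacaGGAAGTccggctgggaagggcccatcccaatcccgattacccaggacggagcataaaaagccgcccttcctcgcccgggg

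GGAAGT was found in the 250 bases before 4 of the 11 starts, which belonged to EGFL7, FLT1 and TEK, and in 19.5% of 35116 promoter windows of the same length. The 2 TEK windows overlap and share their match, so the motif stood at 3 distinct places. The match of TEK lay in bases annotated as exon and is not printed. The KDR window held none, and neither did the window at the other EGFL7 start, chr9:136658606-136658855, which is not printed. The octamer ATGCAAAT was found at 0 of the 11 starts and in 1.63% of all windows, and TATAAA at 1 start, that of FLT1, and in 10.7% of all windows. A match is a description of the letters and not a site.

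ERG and FLI1 followed another course, with their highest levels in SC-β. ERG was listed at 0.0509 TPM in hESCs, 0.0460 TPM in DE, 0.221 TPM in PGT, 0.768 TPM in PP, 2.09 TPM in PH and 5.18 TPM in SC-β. FLI1 was listed at 0.349 TPM in hESCs, 0.196 TPM in DE, 1.04 TPM in PGT, 0.767 TPM in PP, 1.91 TPM in PH and 19.0 TPM in SC-β. Both factor genes were thus at or under 0.349 TPM in hESCs and DE, where VWF, KDR, FLT1 and TEK peaked. The log2 ratio of SC-β to PP was 1.81 for ERG and 3.50 for FLI1.

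**Figure D2:**
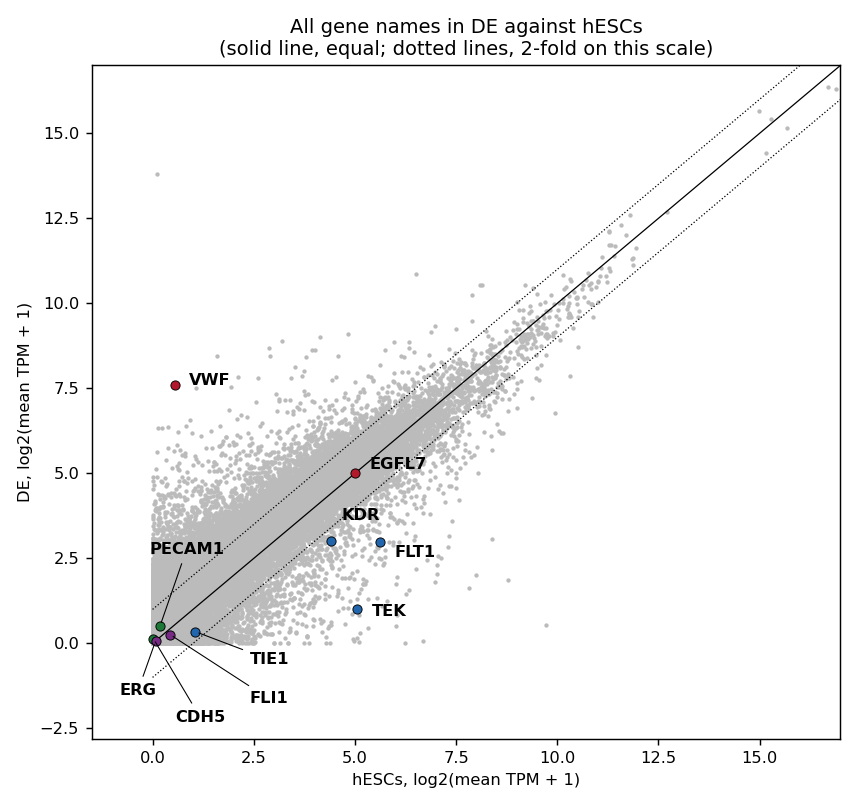
Mean level of every gene name in DE (y axis) against hESCs (x axis), both as log2(mean TPM + 1), with the 10 endothelial marker genes labelled and coloured by role. VWF lies far above the diagonal at a log2 ratio of 7.04, EGFL7 lies on it, KDR, FLT1 and TEK lie below the dotted 2-fold line, and the other 5 lie near the origin.

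Counted over the comparisons, a gene was taken as higher or lower from 2-fold on the log2(TPM + 1) scale, among names at 1 TPM or more in either stage, a filter that a gene can pass through its higher stage alone. In DE against hESCs, 6 of the 10 members passed the filter, 1 of them higher (VWF) and 3 lower (KDR, FLT1, TEK), while 28.2% of all names tested were higher and 5.55% lower. The median log2 ratio was -0.09 over all 10 members and -1.06 over the 6 that passed, against 0.58 over the 22514 names that passed. That shift of all names depended on scaling: 83.6% of all names past 2-fold were higher in DE as deposited and 60.3% after median-ratio rescaling, which lowered the median of all names by 0.41. After rescaling, 3591 of 22117 names tested were higher and 2365 lower. Without the 100 most abundant names, 7934 of 26987 were higher and 2013 lower. Counts of a list in those settings stand beside these numbers, and all names were not counted at a pseudocount of 0.1 or at 4-fold. Relative to the median of all names, the log2 ratio of VWF was 6.45 as deposited and 6.57 after rescaling, and that of KDR was -1.99 and -2.02. In PGT against DE, 0 members were higher and 3 were lower, VWF at -6.44, KDR at -1.90 and FLT1 at -1.73, while 4.94% of all names tested were higher and 10.6% lower.

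The later comparisons involved fewer members. In PP against PGT, 0 members were higher and 1 was lower, EGFL7 at -1.21, while 6.3% of all names tested were higher and 7.46% lower. In PH against PP, 1 member was higher, KDR at 1.13, and 0 were lower, while 11.5% of all names were higher and 12.8% lower. In SC-β against PP, 2 members were higher, ERG and FLI1, and 0 were lower, while 20.7% of all names were higher and 1.84% lower. In SC-β against hESCs, 2 members were higher, ERG at 2.56 and FLI1 at 3.89, while 42.4% of all names were higher. In the same comparison 4 of the 7 members that passed the filter were lower, KDR at -2.11, FLT1 and TEK at -4.20 and EGFL7 at -1.20, while 7.08% of all names were lower. After rescaling, higher names made up 60.6% rather than 47.3% of those past 2-fold in PH against PP, and 68.8% rather than 85.7% in SC-β against hESCs.

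The summed level of the 10 members was 134 TPM in hESCs, 238 TPM in DE, 28.6 TPM in PGT, 14.9 TPM in PP, 14.7 TPM in PH and 45.5 TPM in SC-β. VWF made up 80.2% of the sum in DE and at most 4.23% at any other stage. Without VWF the sum was 133 TPM in hESCs and 47.2 TPM in DE. FLT1 led the members in hESCs, VWF in DE, EGFL7 in PGT, PP and PH, and FLI1 in SC-β.

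Further endothelial genes were mostly low in DE. Of 34 such genes, 23 were under 1 TPM in DE, 2 of them at 0, and 2 reached 5 TPM. Some of them peaked in DE with VWF at low levels: CD34, a surface protein of endothelial and blood progenitors, was listed at 0.0319 TPM in hESCs and 0.991 TPM in DE, CLEC14A at 0.0184 and 0.563 TPM and SOX18 at 0.0399 and 0.172 TPM. ENG, a TGF-β co-receptor, stood at 1.18 TPM in hESCs and 2.66 TPM in DE, its highest stage, and APLNR, the apelin receptor gene, at 0.740 and 1.41 TPM. CLDN5 was listed at 0.707 TPM in DE and was highest in PH at 1.73 TPM, ROBO4 was listed at 0.0953 TPM in DE and EMCN at 0. All of these were named after their values were seen. Among the 13 that reached 1 TPM in DE or hESCs, 3 were higher in DE and 1 was lower, beside 28.2% and 5.55% of all names. The higher count was 5 without the 100 most abundant names, where 7934 of 26987 names were higher. The lower count was 3 after median-ratio rescaling, where 2365 of 22117 names were lower. MYCT1, a gene of endothelial and blood-forming cells, stood at 2.26 TPM in hESCs, 10.2 TPM in DE and 0.129 TPM or less at every later stage, a level in DE 4.52-fold above the next. GJA4, a gap junction gene of arteries, stood at 0.744 TPM in hESCs, 6.54 TPM in DE, 2.28 TPM in PGT, 5.42 TPM in PP, 0.233 TPM in PH and 1.07 TPM in SC-β. ARHGEF15, which encodes a guanine nucleotide exchange factor of vessels, stood at 0.208 TPM in hESCs, 3.22 TPM in DE and 0.131 TPM or less afterwards, and ECSCR, the lower gene, at 2.58 TPM in hESCs and 0.204 TPM in DE. These last 2 genes fell outside the rule for named genes and were named after their values were seen. Besides ECSCR, those of the 34 highest in hESCs were NOS3, at 3.62 TPM against 2.80 TPM in DE, and RASIP1, at 3.92 against 2.06 TPM. GJA5 stood at 3.07 TPM in hESCs and 1.22 TPM in DE, and ICAM2 at 1.24 and 0.786 TPM. NOS3, RASIP1, GJA5 and ICAM2 were within 2-fold on the log2(TPM + 1) scale and were also named after their values were seen. Of the 34 genes, 8 were highest in DE, as were 3 of the 10 members, while 5 were highest in hESCs and 11 in SC-β. The share of all names highest at each stage was not computed, so these counts are not a result about endothelial genes. Of all names, 16784 reached 1 TPM in hESCs, 21619 in DE and 24571 in SC-β.

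**Figure D3:**
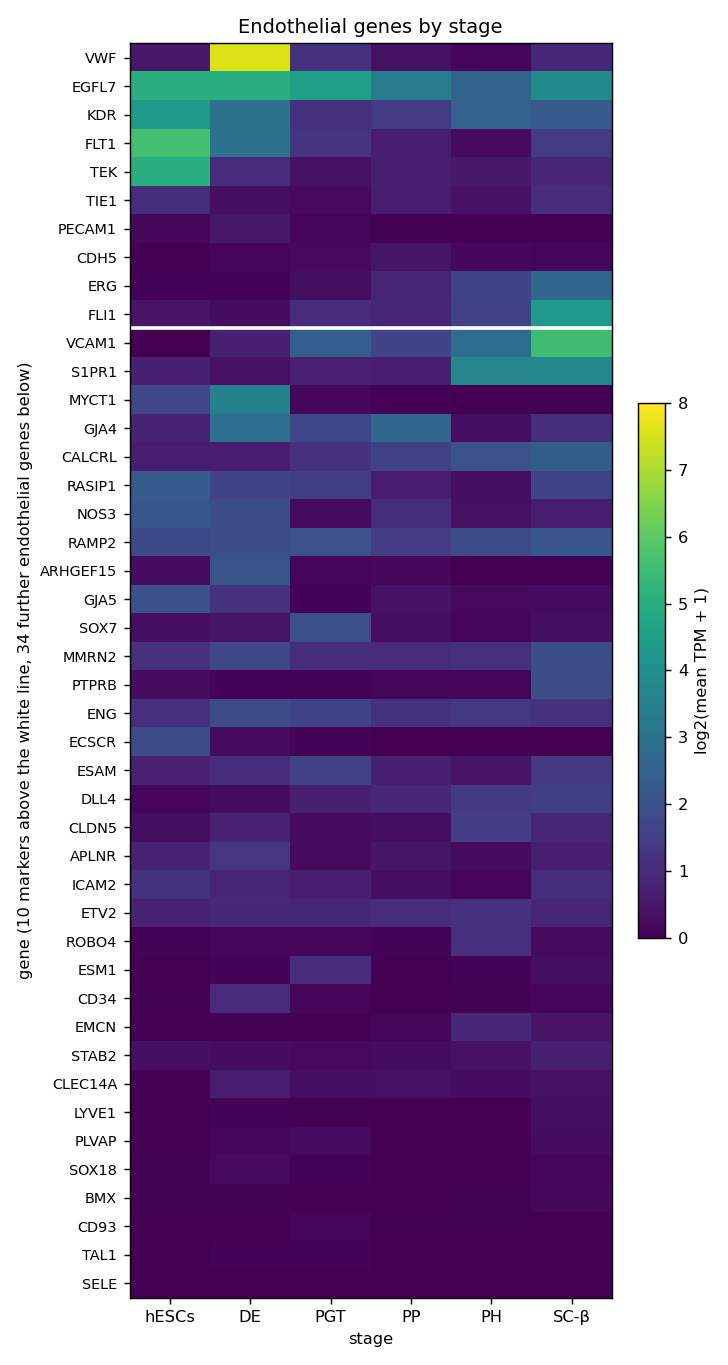
Mean level, as log2(mean TPM + 1), of the 10 endothelial marker genes (above the white line) and 34 further endothelial genes (below it) at the 6 stages. The DE column is bright only for VWF, at 191 TPM, and is intermediate for EGFL7, KDR, FLT1, MYCT1 and GJA4, whereas VCAM1, S1PR1, FLI1 and ERG are brightest in SC-β.

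Genes that act on or with VWF were measured at levels from 0 to 393 TPM in DE. Of 13 such genes, 9 reached 1 TPM in DE or hESCs, and 4 were higher and 1 lower in DE, beside 28.2% and 5.55% of all names. The higher count was 2 after median-ratio rescaling, where 3591 of 22117 names were higher, and 0 at 4-fold. ADAMTS13, the protease that cleaves VWF, stood at 1.16 TPM in hESCs and 6.07 TPM in DE. F8, coagulation factor VIII, stood at 0.691 TPM and 3.53 TPM, and FURIN, the protease that removes the VWF propeptide, at 18.9 TPM and 47.4 TPM. RAB3D, a small GTPase of secretory granules, stood at 8.03 TPM and 17.3 TPM, and the lower gene, THBS1, at 19.2 TPM and 7.95 TPM. SELP, which shares the Weibel-Palade body with VWF, was listed at 0 in hESCs and 0.00518 TPM in DE, whereas CD63, a general membrane protein of late endosomes also found in that organelle, stood at 235 TPM and 393 TPM. ADAMTS13, F8, RAB3D, THBS1 and SELP were named after their values were seen.

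Genes of the VEGF and TIE pathways were higher in DE about as often as all names. Of 13 such genes, 10 reached 1 TPM in DE or hESCs, of which 3 were higher (2 after median-ratio rescaling) and 0 lower, beside 28.2% and 5.55% of all names. VEGFA, the ligand of KDR and FLT1, stood at 22.2 TPM in hESCs, 110 TPM in DE and 114 TPM in PGT. ANGPT2, a ligand of TEK, stood at 0.948 TPM in hESCs and 4.94 TPM in DE, and NRP1, a VEGF co-receptor, at 6.93 TPM and 17.6 TPM, both named after their values were seen. PLCG1 and PTK2, which act downstream of the VEGF receptors, stood at 83.6 and 82.9 TPM in DE and were within 2-fold of hESCs.

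Other ETS-family genes were expressed in DE, where ERG and FLI1 were low, and also in SC-β, where these were highest. Of 12 such genes, 9 reached 5 TPM in each of the 2 stages, with summed levels of 247 TPM in DE and 196 TPM in SC-β. Of these 12 genes, 9 reached 1 TPM in DE or hESCs, of which 1 was higher in DE and 0 lower, beside 28.2% and 5.55% of all names. The lower count was 1 after median-ratio rescaling, where 2365 of 22117 names were lower. ETS2, the higher gene, stood at 27.9 TPM in hESCs and 88.2 TPM in DE, followed in DE by ELF2 at 35.7 TPM, ELF1 at 25.0 TPM and GABPA at 24.3 TPM. ETV2, the factor that starts the endothelial and blood lineages, stayed between 0.737 TPM in hESCs and 1.20 TPM in PH.

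Markers of other cells that make or accompany VWF were also examined in DE. Of 9 megakaryocyte and platelet genes, 6 were under 1 TPM in DE and 2 were at 0 (GP1BB and PPBP), with a summed level of 8.47 TPM in hESCs and 8.48 TPM in DE, led by ITGA2B at 3.88 and 4.46 TPM. Of these 9, 4 reached 1 TPM in DE or hESCs, of which 0 were higher in DE and 1 was lower. The lower gene was PF4, at 2.57 TPM in hESCs and 0.610 TPM in DE. Of all names tested, 28.2% were higher in DE and 5.55% lower. ITGB3, under 1 TPM in both stages and so not counted, was listed at 0.0907 TPM in hESCs and 0.547 TPM in DE. The 10 blood progenitor genes summed to 4.92 TPM in hESCs and 14.5 TPM in DE, and 4 of them reached 1 TPM in either stage. Of these 4, 2 were higher in DE, MYB at 7.17 TPM and GATA2 at 2.47 TPM, and 0 were lower. The higher count was 1 after median-ratio rescaling, where 3591 of 22117 names were higher, and 4 with a pseudocount of 0.1. GATA1 and TAL1 were listed at 0.0443 and 0.0458 TPM in DE. The 8 leukocyte genes summed to 1.82 TPM in hESCs and 2.73 TPM in DE, with PTPRC at 0.0125 TPM in DE. The 9 mural genes summed to 322 TPM in hESCs and 344 TPM in DE, mostly TAGLN at 277 and 251 TPM. Of these, 6 reached 1 TPM in either stage, of which NOTCH3 was higher in DE at 57.0 TPM and ACTA2 lower at 0.250 TPM. The higher count was 2 with a pseudocount of 0.1 or without the 100 most abundant names.

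**Figure D4:**
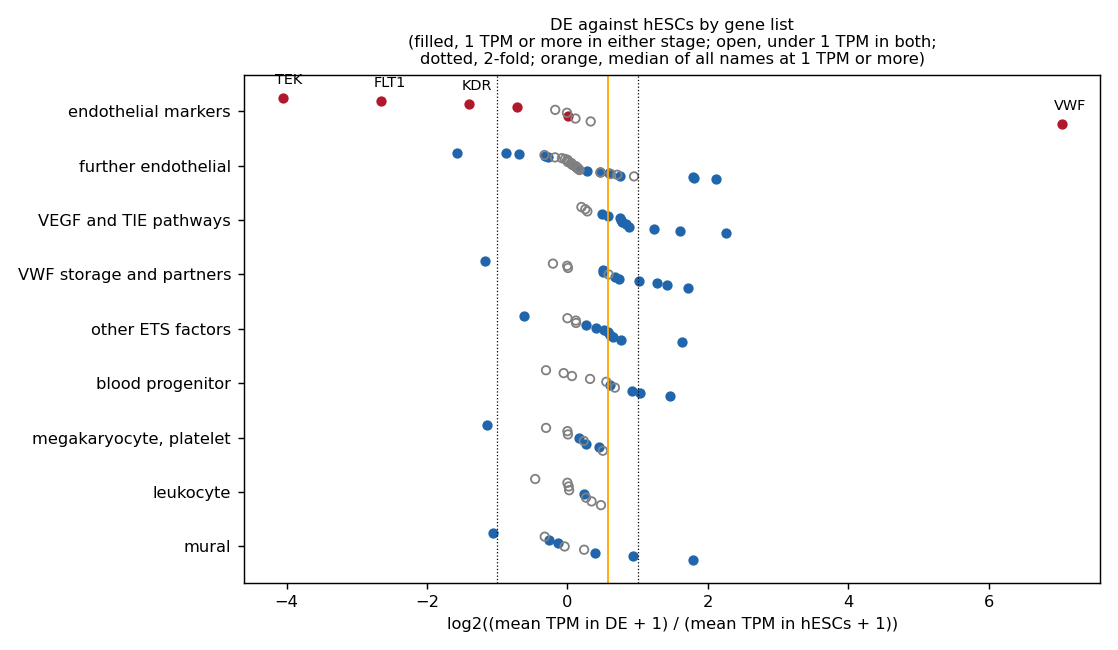
Log2 ratio of DE to hESCs after adding 1 TPM (x axis) for each gene of 9 lists (rows). Filled points reached 1 TPM in either stage and open points did not, dotted lines mark 2-fold and the orange line marks the median of all names tested, 0.58. VWF stands alone at 7.04, the lowest genes are TEK at -4.06, FLT1 at -2.65, ECSCR at -1.57 and KDR at -1.40, and the highest gene of the other lists is VEGFA at 2.25.

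Summed leukocyte and mural marker levels were higher in SC-β than in PP, as were ERG and FLI1. They did not follow these 2 genes at every stage. Mural genes summed to 322 TPM in hESCs and 344 TPM in DE, where ERG and FLI1 were low. In PH, mural genes summed to 81.5 TPM and leukocyte genes to 4.39 TPM. Leukocyte genes summed to 4.35 TPM in PP against 72.5 TPM in SC-β, where LYZ, encoding lysozyme, took 65.9 TPM and PTPRC, the defining pan-leukocyte gene, was listed at 0.0451 TPM. Mural genes summed to 86.9 TPM in PP against 336 TPM in SC-β, with TAGLN at 14.6 and 117 TPM, ACTA2 at 15.2 and 73.1 TPM and PDGFRB at 4.45 and 57.8 TPM. All 9 mural genes reached 1 TPM in PP or SC-β, and 4 were higher in SC-β and 0 lower. Of the 8 leukocyte genes, 4 reached 1 TPM there, of which 3 were higher and 0 lower. Of the 34 further endothelial genes, 14 passed the same filter, of which 3 were higher and 1 was lower. The shares of all names tested were 20.7% higher and 1.84% lower. The higher count of the further endothelial genes was 8 with a pseudocount of 0.1. It was 5 without the 100 most abundant names, where 6306 of 29672 names were higher. PECAM1 and CDH5 were at or under 0.0955 TPM in SC-β. VCAM1, an adhesion gene also found on fibroblasts, stood at 2.21 TPM in PP against 45.9 TPM in SC-β, and S1PR1, a sphingosine phosphate receptor gene, at 0.607 TPM and 12.6 TPM. The part of these cell types in the levels of ERG and FLI1 was not tested.

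By Pearson r of log2(TPM + 1) over the 6 stages, 375 of 28201 other names at 1 TPM or more in a stage reached 0.95 with VWF. Their median level in DE was 2.51 TPM, and 107 of them reached 5 TPM there. The 5 most alike were OR7E87P, RPS3AP39, RP11-303G3.9, DPRXP7 and OTOF, at 1.18 to 3.49 TPM in DE. Of the 10 members, none besides VWF reached 0.95, and PECAM1 and CDH5 were under 1 TPM at every stage. The r of the 34 further endothelial genes is not given here, and some of them, ARHGEF15 and CD34 included, also peaked in DE.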

How the data were processed

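RNA-seq of 12 samples, 2 per stage, was used, among 148 samples of the series. Reads were aligned to hg38 with HISAT2 (version 2.2.0), TPM values were computed by StringTie (version 2.1.6), and the authors deposited their mean per gene and stage. The gene annotation is not given in the sources used here. The methods name rRNA removal with RiboMinus and the labels a TruSeq Stranded mRNA kit, which was not settled here. A model over replicates was planned but needs values per replicate, so no test was run.

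The 50451 entries were summed by name to 49085 names. Log2 ratios used a pseudocount of 1 TPM, which understates changes of low genes, and names at 1 TPM or more in either stage were counted from 2-fold. The members and lists were chosen with earlier results of these data known. The genes named were the 10 members, up to 4 genes of each further list at 5 TPM or more in DE or in the stage discussed, the 5 names most like VWF, VWFP1 and the nearest 2 protein-coding genes on each side of VWF. Other genes, including those low in DE, were named after their values were seen. TAL1, ETV2 and SELP each stand in 2 lists. HBZ and GP9 are not analysed here. Positions were from GENCODE version 44 (GRCh38), and VWFP1 was aligned with BLAST+ 2.17.0.

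Alternatives were a pseudocount of 0.1, a 4-fold threshold, no filter, median-ratio rescaling over 13938 names, totals without the 100 most abundant names, the highest entry for repeated names and Spearman's rho. The code was checked on a copy of the hESC values of 49085 genes, without noise and with 4-fold changes put into 200 genes. All 200 were recovered and 0 unchanged genes passed 2-fold. Both counts were fixed by this setting and say nothing about error rates in the data. Python 3.11.15 was used with numpy 2.4.6, pandas 2.3.3 and matplotlib 3.10.9.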

Additional observations from a re-analysis of the deposited data

How the results depend on the processing

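No paired analysis was possible because each deposited value is a mean over its stage, and for the same reason no replicate could be left out. The log2 ratio of VWF in DE against hESCs ranged from 6.74 after median-ratio rescaling to 8.40 with a pseudocount of 0.1. Of 240 recomputed log2 ratios of the members, 213 kept their direction and side of 2-fold, 25 came to pass 2-fold in the same direction and 2 turned in sign, both of EGFL7 in DE against hESCs, at -0.45 after rescaling and -0.16 without the 100 most abundant names. In DE against hESCs, the count of 3 lower members became 4 with a pseudocount of 0.1 or without the 100 most abundant names. It became 2 at 4-fold, and the count of higher members stayed at 1 in every setting. With a pseudocount of 0.1 the counts of members were 1 higher in PGT against DE, 3 lower in PP against PGT, 3 higher in PH against PP and 4 higher in SC-β against PP. Without the 100 most abundant names the counts for the first 3 of these were 1, 2 and 3. The matching counts of all names were 1935 of 27501, 2117 of 26768 and 4831 of 27722. At 4-fold, 1 member was lower in PGT against DE, 0 were lower in PP against PGT, 0 were higher in PH against PP and 1 was higher in SC-β against PP, a threshold that can only lower counts. The cause of the other moves was not tested. At a Spearman rho of 0.95, 146 names were like VWF in place of 375. The reads behind each value and the replicate spread are unknown, so differences between members under 1 TPM cannot be read.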

Other observations

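The genes beside VWF differed in their course. ANO2, a chloride channel gene whose nearest annotated base lies 2645 bases from VWF, was also highest in DE, at 1.28 TPM in hESCs, 16.9 TPM in DE, 6.94 TPM in PGT, 2.70 TPM in PP, 1.22 TPM in PH and 3.70 TPM in SC-β. CD9, a tetraspanin gene 74945 bases away on the other side, was lower in DE, at 41.2 TPM, than in hESCs, at 181 TPM. NTF3, a neurotrophin gene, stood at 0.154 TPM in hESCs and 4.73 TPM in DE and was highest in SC-β at 12.9 TPM. PLEKHG6 stood at 11.2 TPM in hESCs and 10.6 TPM in DE. RN7SL69P, annotated within VWF on the same strand, was listed at 1.06 TPM in DE, 0.178 TPM in PH and 0 in hESCs, PGT, PP and SC-β.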
